A study of Mus musculus with 288 samples.

Results

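Gpr119-positive cells are intestinal endocrine cells with transcripts of Gpr119, a receptor for lipid amides on the cell surface. They were divided by their level of Gcg, the proglucagon gene. Of 288 single cells in 3 sequencing pools of 96 cells each, 250 had at least 20000 reads on mouse genes and at most 20% of them on mitochondrial genes. Levels in single cells are given as plain CPM, the reads of a gene scaled to a common total of mouse gene reads. Gpr119 reached 10 CPM in 75 of these cells, 63 of them had Gip under 10000 CPM, and 60 of those also had Pzp under 100 CPM. These 60 cells made up 24% of the cells that passed. The Gcg-high side held the 36 cells with Gcg at 10000 CPM or more, and the Gcg-low side held the other 24. Gcg, Gpr119, Gip and Pzp chose the cells, so their levels are given as a description without a test between the sides.

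All cells came from male GLU-Venus mice on a C57BL6 background, 20 to 21 weeks of age. In this line the proglucagon promoter drives Venus, a fluorescent protein. The first 10 cm of small intestine was dissociated, and untreated single cells were sorted by flow cytometry into Smart-seq2 libraries. The labels name the pool of each cell (SLX-11175, SLX-11179 or SLX-9703) but give neither its mouse nor its fluorescence. Both sides share the same strain, tissue and way of sorting, and were divided by measured Gcg alone.

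As background, Gpr119 couples to Gs and raises cyclic AMP when fat is digested, which promotes hormone release from enteroendocrine cells. Gcg encodes proglucagon, the precursor of glucagon-like peptides 1 and 2 in the gut. Sct encodes secretin, which drives bicarbonate secretion by the pancreas. Nts encodes neurotensin, Cck cholecystokinin, Ghrl ghrelin and Pyy peptide YY, and single enteroendocrine cells of the upper gut commonly carry transcripts of several of these hormones. Gip encodes the incretin of K-cells, and Pzp encodes pregnancy zone protein.

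The results turn on Gcg, Sct and Nts, so the stretch before the start site of each is shown, 5′ to 3′ on the strand of the gene. The sequences are from RefSeq on GRCm38.p6 and cover the 250 bases before the RefSeq start of Gcg (chr2:62483654-62483903, minus strand) and of Sct (chr7:141279134-141279383, minus strand). For Nts they stop where the longer GENCODE gene model begins, which leaves 182 bases (chr10:102490487-102490668, minus strand). Capitals mark matches on either strand to the E-box CANNTG, the CRE TGACGTCA, the AP-1 motif TGANTCA or the TATA motif TATAAA, and no match of one motif overlapped another.

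Gcg: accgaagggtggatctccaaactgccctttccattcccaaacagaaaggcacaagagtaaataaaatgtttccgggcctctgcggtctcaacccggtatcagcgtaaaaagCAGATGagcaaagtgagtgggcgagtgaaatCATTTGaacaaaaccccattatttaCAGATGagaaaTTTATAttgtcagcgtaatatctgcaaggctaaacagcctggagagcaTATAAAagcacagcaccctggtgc

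Sct: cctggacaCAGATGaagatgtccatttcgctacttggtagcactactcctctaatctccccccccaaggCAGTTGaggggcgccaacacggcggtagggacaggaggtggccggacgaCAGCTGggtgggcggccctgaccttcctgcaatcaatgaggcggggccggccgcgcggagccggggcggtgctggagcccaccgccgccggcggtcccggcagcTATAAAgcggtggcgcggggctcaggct

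Nts: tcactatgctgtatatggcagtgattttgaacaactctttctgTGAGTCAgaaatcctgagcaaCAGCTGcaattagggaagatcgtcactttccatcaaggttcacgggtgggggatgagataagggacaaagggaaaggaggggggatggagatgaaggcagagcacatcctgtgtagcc

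Gcg had 3 E-boxes, at 139, 108 and 83 bases before the start, and TATA matches at 72 bases (on the other strand) and at 24 bases. Sct also had 3 E-boxes, at 242, 181 and 132 bases, and 1 TATA match at 28 bases. Nts had 1 E-box at 186 bases and 1 AP-1 match at 207 bases before its RefSeq start. None of the 3 windows held the CRE. Among 32851 mouse promoters, 66.2% had an E-box in the same 250 bases, 12.4% a TATA match, 6.75% an AP-1 match and 1.55% a CRE. In the 182 bases used for Nts, 55.9% of promoters had an E-box and 4.96% an AP-1 match. GC content was 44.8% for Gcg, 68% for Sct and 48.4% for Nts. These are matches of letters and not evidence of binding.

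The 2 sides were found in every pool. There were 8 Gcg-high and 5 Gcg-low cells in SLX-11175, 13 and 7 in SLX-11179, and 15 and 12 in SLX-9703. The Gcg-high share was 60% (exact Clopper-Pearson 95% interval 46.54 to 72.44%, counting of cells only), with 61.54%, 65% and 55.56% in the 3 pools. SLX-9703 was sequenced far more deeply than the other 2 pools. Its median cell had 2400022 reads on the Gcg-high side and 1841152 on the Gcg-low side, against 62715.5 and 48244 in SLX-11175 and 74450 and 79523 in SLX-11179. Median mitochondrial percentages lay between 2.06 and 5.51 in all 6 groups of cells, with a maximum of 17.5 in 1 Gcg-high cell of SLX-9703. Chgb, chromogranin B of the secretory granule, is an endocrine marker that the rule did not use. It was at 417.9 CPM or more in all Gcg-high cells and at 945.7 or more in all Gcg-low cells. In the 79 other cells with Gcg, Gip, Pzp and Gpr119 under their limits its median was 116.2 CPM, with a range of 0 to 42170. Presence of Chgb reads alone does not set the members apart.

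Gcg on the Gcg-high side ranged from 11120 to 361200 CPM with a median of 107500. On the Gcg-low side it ranged from 0 to 8168 with a median of 943.3, and 23 of the 24 cells had at least 1 Gcg read. Most Gcg-low cells thus had Gcg transcripts, at a lower level. The cells nearest to the threshold had 7366 and 8168 CPM below it and 11120 and 15020 above it. Gpr119 overlapped between the sides, from 16.22 to 615.4 CPM (median 128.5) on the Gcg-high side and from 11.09 to 877.5 (median 86.81) on the Gcg-low side. Across the Gpr119 threshold, the nearest cells had 2.58 and 7.027 CPM outside and 11.09 and 16.22 inside. Depth set what this threshold meant. In SLX-9703, 49 cells had a Gpr119 read and 16 of them were under 10 CPM, whereas no cell of the shallow pools had a read and lay under it. Of the 33 members in the shallow pools, 2 carried a single Gpr119 read. The nearest Gip values were 1079 and 3645 CPM inside and 11720 and 22880 outside, and those of Pzp were 23.38 and 34.82 inside and 226.4 and 231.5 outside.

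**Figure D1:**
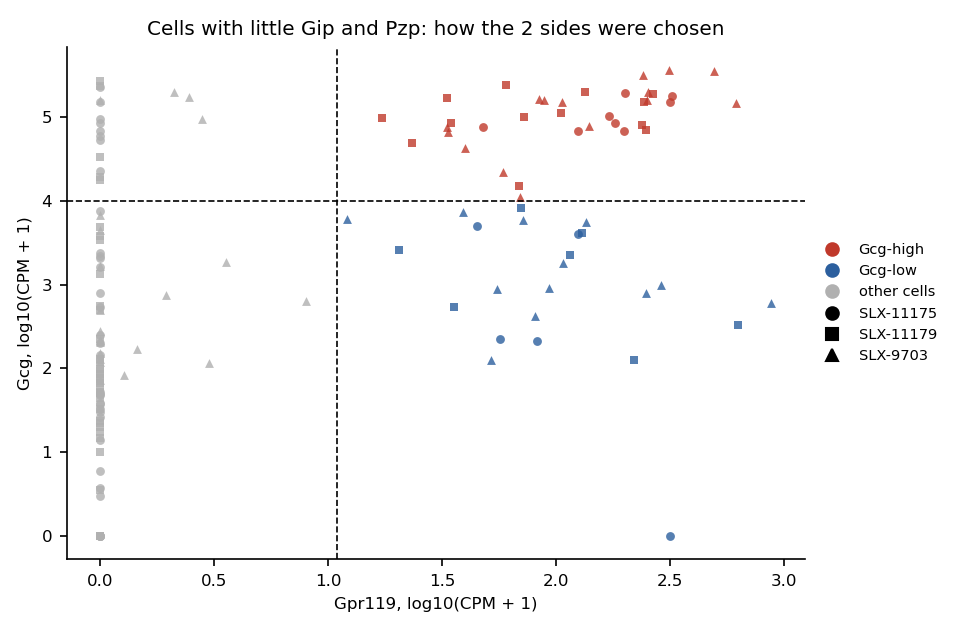
Gcg against Gpr119 in the cells with little Gip and Pzp, both as log10 of plain CPM plus 1, with 1 point a cell, colours for the sides and shapes for the pools. The dashed lines are the thresholds of 10 CPM for Gpr119 and 10000 CPM for Gcg. The 36 Gcg-high and 24 Gcg-low cells overlap in Gpr119, and a column of other cells has no Gpr119 read.

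The genes called between the sides were 2 other hormone genes, and both were lower in the Gcg-high cells. Counts were summed per pool and side, and the 3 pairs of sums were compared with the pool as block. Of 6753 genes tested, 2 passed an adjusted p of 0.05 (0.0296%), Sct and Nts. No gene passed as higher by edgeR, whereas DESeq2 on the same sums called 19 higher and 18 lower. By edgeR 293 genes (4.34%) had an unadjusted p under 0.05, 167 of them higher (2.47%) and 126 lower (1.87%). This share is below the 0.05 that such a threshold gives by chance alone. The median log2 fold change of all genes tested was 0.10. The 3 pools leave 2 residual degrees of freedom. The edgeR test draws the spread of each gene toward that of the other genes. Each p-value thus rests in part on other genes and not on the spread between 3 pools alone.

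Sct lies at chr7:141278330-141279133 on mm10 (ENSMUSG00000038580). In SLX-11175, SLX-11179 and SLX-9703 its TMM-normalised CPM was 5407, 22850 and 18190 in the Gcg-high sums and 125500, 109300 and 105000 in the Gcg-low sums. Every Gcg-low sum was above every Gcg-high sum, as in 340 (5.03%) of all genes tested. The SD over pools was 9030 on a mean of 15480 for Gcg-high and 10800 on a mean of 113300 for Gcg-low. Relative to the mean, the Gcg-high sums varied more. The log2 fold change, Gcg-high minus Gcg-low, was -3.08 (SE 0.41, n = 3 pools, edgeR adjusted p = 0.00622), or 8.45-fold lower. With the 4 rule genes left out of the library sizes it was -3.08 (adjusted p = 0.0147). The call was lost without the pool block (-2.87, adjusted p = 0.257), with the Pzp-positive sums in the same fit (-2.93, 0.0578) and without SLX-9703 (-3.38, 0.153).

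Nts lies at chr10:102481756-102490486 (ENSMUSG00000019890). Its TMM-normalised CPM was 90.71, 573.4 and 31.9 in the Gcg-high sums and 56130, 7758 and 9950 in the Gcg-low sums, in the same order of pools. The sums did not overlap, which also held for 5.03% of all genes tested in this direction. The log2 fold change was -7.39 (SE 0.94, n = 3 pools, edgeR adjusted p = 0.00525). This call too was lost without the block (-6.73, adjusted p = 0.201) and with the Pzp-positive sums in the fit (-6.66, 0.0578). Over the 3 pools left out in turn, Nts passed each time and ranged from -8.73 to -6.03. With the sides divided at 1000 CPM of Gcg it was -4.04, still past the threshold.

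**Figure D2:**
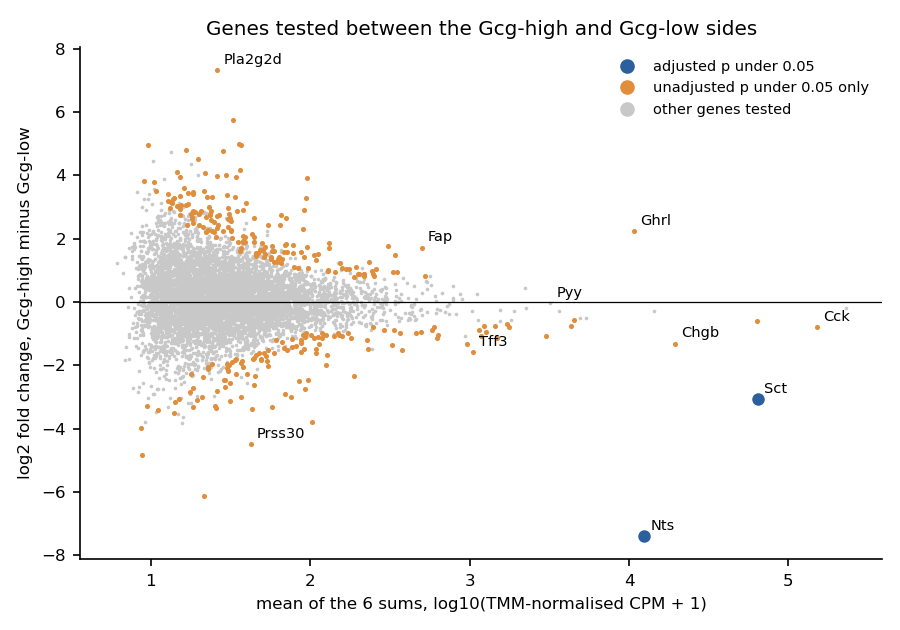
Log2 fold change (Gcg-high minus Gcg-low) of each tested gene against its mean level over the 6 sums, as log10 of TMM-normalised CPM plus 1, without the rule genes. Blue points are the 2 genes with an adjusted p under 0.05, Nts at -7.39 and Sct at -3.08, and orange points are the 291 others with an unadjusted p under 0.05.

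Individual cells showed what lay behind the Sct sums. All 24 Gcg-low cells had Sct at 10000 CPM or more, from 11210 to 185500 with a median of 89480. Only 13 of the 36 Gcg-high cells did, and their side ranged from 123.4 to 107900 with a median of 2579. Pool medians were 74430, 80540 and 96840 in Gcg-low cells and 2579, 1845 and 3102 in Gcg-high cells, so each pool showed the same order. A single cell held 55.7% of the Sct reads in the Gcg-low sum of SLX-11175, the smallest sum, and without that pool the log2 fold change was -2.40 with the call kept.

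Across the 60 cells, Sct was lower in each higher band of Gcg. The median was 130700 CPM in the 13 cells with Gcg under 1000 CPM, and 80070 in the 11 cells with Gcg from 1000 to 10000. In the 16 cells from 10000 to 100000 it was 27930, and in the 20 cells at 100000 or above it was 1416. Sct reached 10000 CPM in 13, 11, 11 and 2 cells of these bands. Spearman's rho between Gcg and Sct was -0.868 over the 13 cells of SLX-11175, -0.923 over the 20 of SLX-11179 and -0.797 over the 27 of SLX-9703. Within the Gcg-high side alone it was -0.738, -0.896 and -0.611 (8, 13 and 15 cells), and within the Gcg-low side it was -0.286 and -0.14 in the 2 pools with more than 5 cells. These are descriptions over cells that share a pool, and both values are shares of the same total, which moves them in opposite directions.

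**Figure D3:**
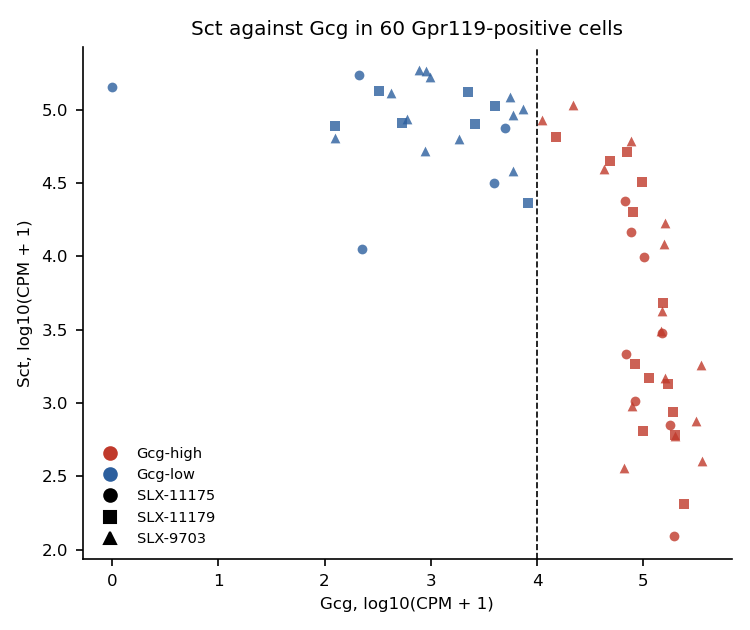
Sct against Gcg in the 60 Gpr119-positive cells, both as log10 of plain CPM plus 1, with colours for the sides and shapes for the pools. The dashed line is at 10000 CPM of Gcg. The Gcg-low cells all had Sct at 10000 CPM or more, and of the 20 cells with Gcg at 100000 CPM or more 2 did.

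Sct in other cells of the same pools is given for reference. In 17 cells with Gcg at 10000 CPM or more but Gpr119 under 10 CPM, and Gip and Pzp under their limits, the Sct median was 18790 CPM and 10 cells reached 10000. In 65 Pzp-positive cells it was 28770 with 51 cells at that level, and in 29 cells with Gip at 10000 CPM or more it was 1026 with 5 cells. A further 14 cells had Cck at 10000 CPM or more with Gcg, Gip, Pzp and Gpr119 all under their limits, a group added after its values were seen. Their Sct median was 68630 CPM with a range of 4121 to 145900, and 12 of them reached 10000. This range overlapped that of the Gcg-low cells, so high Sct was also found in cells with little Gcg and Gpr119. These medians were not tested.

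Nts was high in fewer cells than Sct. Among the Gcg-low cells, 9 of 24 had Nts at 1000 CPM or more and 6 had it at 10000 or more, with a median of 167.7 and a maximum of 194200 CPM. On the Gcg-high side 3 of 36 reached 1000 and 0 reached 10000, with a median of 21.83 and a maximum of 1689. The 2 highest cells held 100%, 96.2% and 76.4% of the Nts reads in the Gcg-low sums of SLX-11175, SLX-11179 and SLX-9703, so the fold change of the sums rests on few cells. The highest cell, in SLX-11175, had Nts at 194200, Sct at 141600 and Gcg at 0 CPM, from 57078 reads. In SLX-9703 the cells with 46940, 44880, 26940 and 2851 CPM of Nts had Sct at 101500, 185500, 166600 and 52220, on both sides of the pool's Gcg-low median of 96840. In SLX-11175 the cell with Nts at 8552 CPM had Sct at 171500, and the Gcg-low median there was 74430. In SLX-11179 the cells with Nts at 24580 and 21900 CPM had Sct at 133200 and 106200, above the pool's Gcg-low median of 80540. The cell with Nts at 1586 CPM had the lowest Sct of the Gcg-low cells in SLX-11179, 22970. The 3 Gcg-high cells above 1000 CPM, all of SLX-11179, had Sct between 44740 and 64900 CPM, all above the median of 1845 in the Gcg-high cells of that pool.

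The remaining hormones did not pass the test as fitted. Cck was abundant on both sides, with 34 of 36 Gcg-high and 23 of 24 Gcg-low cells at 10000 CPM or more. Its sums were 70280, 161800 and 104600 TMM-normalised CPM on the Gcg-high side and 169100, 235000 and 159000 on the Gcg-low side, lower in the Gcg-high sum of each pool (log2 fold change -0.80, SE 0.28, edgeR adjusted p = 0.910). Ghrl gave 25180, 11560 and 13480 against 536.4, 4340 and 9217, higher in the Gcg-high sum of each pool by widely different amounts (2.24, SE 0.72, 0.822). Ghrl did pass under 4 of 19 alternatives, at 0.98 without SLX-11175 (adjusted p = 0.00929), 3.07 without SLX-11179 (0.000344), 3.25 with the sides divided at 1000 CPM of Gcg (4.6e-07) and 2.28 without a filter on low counts (7.8e-24). It reached 10000 CPM in 12 of 36 Gcg-high and 5 of 24 Gcg-low cells. Mboat4, the acyltransferase that activates ghrelin, had a log2 fold change of 2.66 (adjusted p = 0.470) and was singled out after its values were seen.

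Pyy had no common direction. Its sums were 1709, 2378 and 875.5 on the Gcg-high side and 12270, 1635 and 255.8 on the Gcg-low side (log2 fold change -0.03, SE 0.67, edgeR adjusted p = 0.999). A single cell with 40930 CPM held 90.4% of the Pyy reads in the Gcg-low sum of SLX-11175. Without SLX-11175 the log2 fold change of Pyy was 1.16 (adjusted p = 0.0306). Ucn3, urocortin 3, stood at -1.39 and Nucb2, the nesfatin precursor, at 1.24, neither past the threshold. Ucn3 passed without SLX-11175 (-2.19, adjusted p = 0.0311), and Cck without a filter on low counts (-0.73, 1.8e-14). Of the 19 peptide hormone genes listed besides Gcg and Gip, 7 were tested, 2 passed as lower (background 0.0296%) and 5 were negative, with a median of -0.80 against 0.10 over all genes. Their summed level was 102800 to 199200 TMM-normalised CPM in the Gcg-high sums and 283600 to 363700 in the Gcg-low sums.

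**Figure D4:**
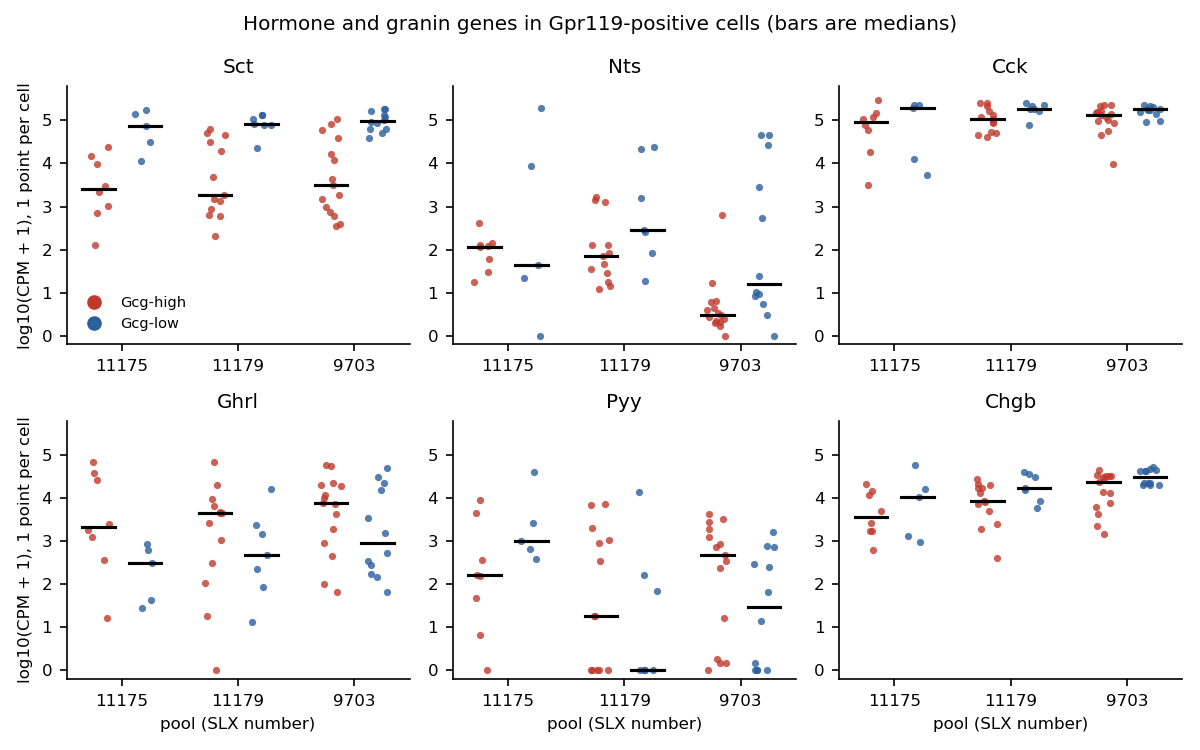
Levels of Sct, Nts, Cck, Ghrl, Pyy and Chgb as log10 of plain CPM plus 1, with 1 point a cell, pools along the horizontal axis, colours for the sides and bars at the median of each side in a pool. Sct medians are 2579, 1845 and 3102 CPM on the Gcg-high side and 74430, 80540 and 96840 on the Gcg-low side, Cck overlaps, and Nts reaches 10000 CPM in 6 Gcg-low cells.

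Counting a hormone as present at 10000 CPM, combinations other than Gcg differed in make-up between the sides. Cck with Sct was the commonest on the Gcg-low side, in 14 of 24 cells. A further 3 of those cells had Cck, Sct and Ghrl, 2 had Cck, Sct and Nts, 2 had these with Ghrl and 2 had them with Pyy, while 1 had Sct alone. On the Gcg-high side, 14 of 36 cells had Cck alone beside Gcg, 9 had Cck and Sct, 7 Cck and Ghrl, and 4 all of Cck, Sct and Ghrl. Ghrl alone was seen in 1 Gcg-high cell, and 1 had none of these hormones. These counts are a description.

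Outside the hormones, the genes with the smallest p did not pass, and they are given because they were the nearest to the threshold. Among those higher in the Gcg-high sums, Fap, a membrane serine protease, had sums of 1156, 508 and 611.3 TMM-normalised CPM against 398.7, 139.7 and 181.4 (log2 fold change 1.72, SE 0.31, edgeR adjusted p = 0.0912). The gene Fap (chr2:62500943-62574075) is the next annotated neighbour of Gcg (chr2:62474530-62483650), 17292 bases away. Gsto1, a glutathione transferase, gave 489.5, 501.6 and 436 against 142.4, 135.4 and 140.2 (1.77, SE 0.33, 0.0912), with little spread on either side. The gene Gsto1 overlaps Cfap43 on the other strand, and the reads of both cannot be told apart without strand. Each of these genes differed by a similar factor in every pool.

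The other genes of this direction did not pass either in the main comparison. Of 19 alternatives, Fap, Gsto1 and Adh1 each passed under 3, Cd177 under 6, Cdkn1c under 4 and Acly under 1. Cd177, a surface glycoprotein, had a log2 fold change of 3.90 (adjusted p = 0.0912), Cdkn1c, an inhibitor of the cell cycle, 3.28 (0.125), Adh1, an alcohol dehydrogenase, 1.496 (0.147), and Acly, which makes cytosolic acetyl-CoA, 2.44 (0.211). Single cells carried much of some sums. The top cell held 93.7% and 88.6% of the Cd177 reads in the Gcg-high sums of SLX-11175 and SLX-11179, and 87.6% and 79.1% of the Cdkn1c reads. For Acly it was 75.7% in SLX-11175. Plb1, Pla2g2d, Dbpht2 and Ddx28 (overlapping Dus2) complete the 10. Their Gcg-low sums were near 0, so they met the filter on low counts through the Gcg-high sums and had to differ. They are given by their levels as a description. Plb1 had 164.2, 19.08 and 8.466 TMM-normalised CPM against 0, 0 and 0.2806, and Pla2g2d 14.08, 20.9 and 113.7 against 0, 1.44 and 0.3206. Dbpht2 had 67.25, 93.6 and 49.18 against 0, 0 and 4.529, and Ddx28 129.8, 11.81 and 16.51 against 4.747, 0 and 0.7214. Plb1 had reads in 8 of 36 Gcg-high and 2 of 24 Gcg-low cells, Ddx28 in 11 and 4, Pla2g2d in 21 and 6, and Dbpht2 in 29 and 2. With so few reads on the Gcg-low side, the sizes of their folds depend on the prior count of the fit and are left out.

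In the lower direction, Tff3, a secreted trefoil peptide typical of goblet cells, had sums of 267.4, 728.8 and 573.6 TMM-normalised CPM against 844.9, 1631 and 2220 (log2 fold change -1.59, SE 0.30, edgeR adjusted p = 0.0912). In SLX-11179 the Gcg-high sum of Tff3 was 728.8, below the lowest Gcg-low sum of 844.9, so the sums did not overlap, as in 340 (5.03%) of all genes tested. Ptprn and Resp18 both encode proteins of dense-core secretory granules. Ptprn gave 28.15, 40.89 and 13.21 against 246.8, 185.8 and 59.16 (-2.46, SE 0.48, 0.0920), and Resp18 gave -1.51 (SE 0.32, 0.125). Prss30, a serine protease, had 1.564, 6.361 and 2.462 TMM-normalised CPM against 113.9, 61.94 and 61.72. It met the filter on low counts through the Gcg-low sums, where it is high, and is given as a description. Gsdma (-3.80), Nt5e (-2.90), Itpk1 (-2.51) and Scrn1 (-3.02, overlapping Wipf3) shared an adjusted p of 0.102. Of 19 alternatives, Scrn1 passed under 6, Tff3 under 5, Gsdma and Nt5e under 3 each, and Ptprn, Resp18 and Itpk1 under 2 each.

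**Figure D5:**
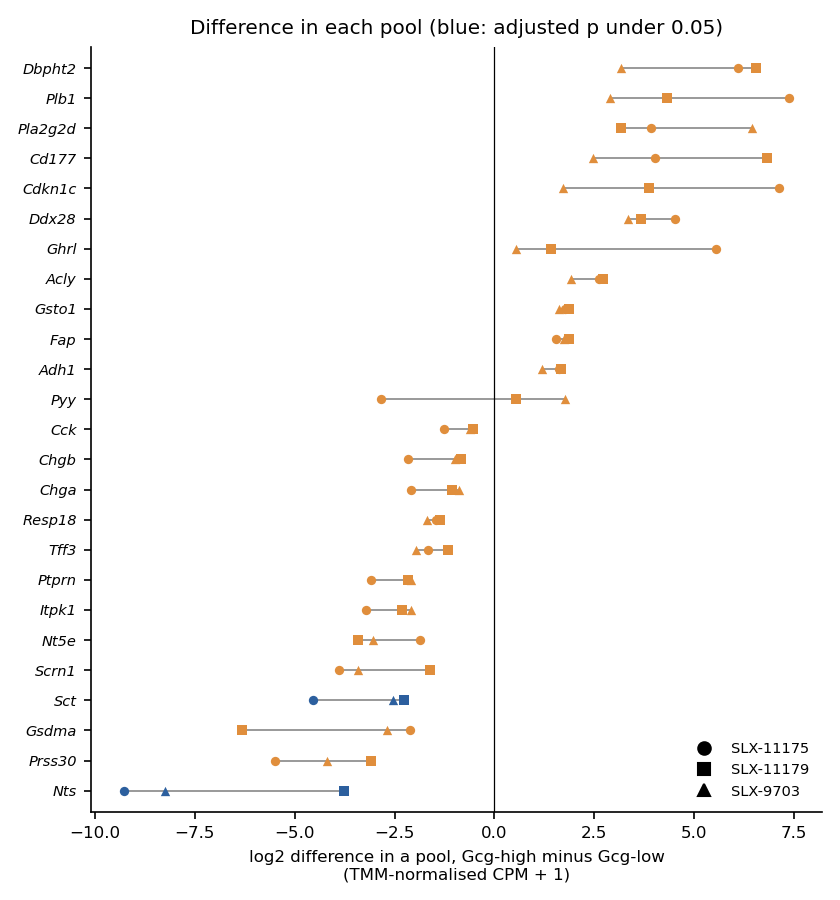
Difference between the sides in each pool, as log2 of TMM-normalised CPM plus 1, for the named genes of either direction and the hormones, with 1 point a pool and shapes as in the plot of Gcg against Sct. Sct lies between -4.54 and -2.26 and Nts between -9.26 and -3.76, while Gsto1 (1.63 to 1.88) and Fap (1.53 to 1.86) had the narrowest ranges among the higher genes.

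Outside the peptide hormones, no member of any list passed, against 0.0296% of all genes, and single members are named for their abundance in the list or, where stated with the methods, after their values were seen. In the list of granins and prohormone processing, 11 of 14 members were tested and 9 were negative (median -0.50). Chgb had sums of 4529, 15400 and 16180 TMM-normalised CPM against 20240, 27560 and 31810 (log2 fold change -1.32, adjusted p = 0.213), and Chga, chromogranin A, 361.3, 460.7 and 864.6 against 1533, 970.9 and 1596 (-1.34, 0.227). Sums of Chga and of Chgb were lower on the Gcg-high side in all 3 pools. The threshold of Gcg mattered for Chgb, which stood at 0.41 when the sides were divided at 1000 CPM. Cpe, carboxypeptidase E, and Scg2, secretogranin 2, stood at -0.28 and -0.50.

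A list of markers that the study gave to its cells with high Gcg had no member that passed between these sides. Of its 11 members 10 were tested and all 10 were negative, with a median of -0.54 against 0.10 over all genes. That list was chosen by the study on these samples and is not independent evidence of a direction. The study compared its cluster with high Gcg with clusters marked by Gip and by Tph1 and Pzp. Cells with high Gip or Pzp are left out of both sides here. Gpr119, which all members carry, was itself a marker of the study's cluster. The comparisons are therefore unlike, and these signs do not bear on the study's markers. It includes Chga, Chgb, Pyy, Ucn3, the free fatty acid receptors Ffar1 (-0.48) and Ffar3 (-0.09), Abcc8 (-0.24), the sulphonylurea receptor, and the irritant channel Trpa1 (-3.31, adjusted p = 0.6249). Trpa1 had sums of 1.564, 1.818 and 17.87 TMM-normalised CPM on the Gcg-high side and 237.3, 5.762 and 73.63 on the Gcg-low side, and reads in 11 of 36 and 12 of 24 cells. The signs of Ffar3, Abcc8 and Pyy turned under other thresholds or without a pool.

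Among receptors and signalling genes no member passed, which does not show that their levels were alike. Of 14 lipid and nutrient receptors 5 were tested and 4 were negative (median -0.46). Ffar1 had 165.8, 292.6 and 151.1 against 199.4, 269.4 and 361.4 TMM-normalised CPM, and its sides overlapped. Ffar2 stood at 0.32 with a sign that turned under 3 alternatives. Of 30 hormone and transmitter receptors 9 were tested, with 4 positive and 5 negative. Among them were Gucy2c, the receptor of guanylin (-0.60), the neurotrophic factor receptor Gfra3 (0.81), the somatostatin receptor Sstr5 (-0.53) and the melanocortin receptor Mc4r (0.60). The cyclic AMP pathway, through which Gpr119 signals, had 18 of 34 members tested, 9 in each direction, with a median of -0.06. Channels and glucose sensing genes had 10 of 23 tested, 3 positive and 7 negative, among them the calcium channel Cacna1a (-0.99) and the potassium channel Kcnb2 (-0.58). Vesicle exocytosis genes had 19 of 24 tested, 10 positive and 9 negative. Among the 9, Syt11 had 3.128, 9.088 and 6.805 against 118.7, 20.17 and 55.99 TMM-normalised CPM. Syt11 met the filter on low counts through the Gcg-low sums, where it is high, and is given as a description.

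Endocrine transcription factors had 13 positive and 7 negative members among 20 tested of 30. Isl1, which acts on the Gcg promoter in islet and gut cells, had sums of 484.8, 246.3 and 265 TMM-normalised CPM against 85.44, 125.3 and 189.9, non-overlapping (log2 fold change 1.25, SE 0.42, edgeR adjusted p = 0.874). Etv1 gave 187.7, 307.2 and 205.5 against 75.95, 128.2 and 133.1 (1.05, SE 0.38, 0.983). For both genes the 3 Gcg-high sums lay above the 3 Gcg-low sums, as they did for 470 (6.96%) of all genes tested. Neurod1 stood at -0.37. The Id and BMP list had 3 positive and 7 negative of 10 tested of 12, with Id1 at -0.38, Id2 at -0.15 and Id3 at -0.71.

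Genes of protein folding in the endoplasmic reticulum were mostly positive. Of 24 members 23 were tested and 19 were positive, 5 of them with an unadjusted p under 0.05 (background 2.47%), and the median was 0.42. Their summed level was 3701 to 3799 TMM-normalised CPM in the Gcg-high sums and 2392 to 2884 in the Gcg-low sums, without overlap. The disulphide isomerases Pdia6 and Pdia4 had log2 fold changes of 1.70 (SE 0.47, edgeR adjusted p = 0.486) and 1.79 (SE 0.53, 0.6249). In sums, Pdia4 had 115.7, 105.4 and 95.65 against 28.48, 41.77 and 23.21 TMM-normalised CPM. No member passed. Immediate early genes, which respond to dissociation, had 11 positive and 3 negative of 14 tested of 18 (median 0.31), with Atf3 at 2.91 (adjusted p = 0.470) and summed levels that overlapped (1451 to 3556 against 1248 to 2311). Serotonin synthesis and loading had 1 positive and 5 negative of 6 tested of 10 (median -0.58), and Slc18a1, a vesicular monoamine transporter, gave 39.1, 51.8 and 57.2 against 175.6, 259.3 and 166.2 TMM-normalised CPM (-1.99, SE 0.42, 0.125). The gene Slc18a1 overlaps Atp6v1b2 on the other strand. Of 13 RGS genes 3 were tested and all were positive (median 0.31).

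Some markers of other cell types were measurable in the sums and moved with some of these results. All 3 of the 8 goblet markers that were tested were negative (median -1.13), 2 of them, Tff3 and Agr2, at an unadjusted p under 0.05 (background of lower genes 1.87%). Their summed level was 552.1 to 2303 TMM-normalised CPM in the Gcg-high sums and 1210 to 5114 in the Gcg-low sums, whereas the defining goblet mucin Muc2 was at 0 to 0.9088. Of 16 enterocyte markers 12 were tested, with 4 positive and 8 negative (median -0.73), and at an unadjusted p under 0.05 there were 4 lower (Sis, Apoa1, Fabp2 and Apob) and 1 higher (Anpep). Their sums were 2865 to 5195 against 4486 to 6927. The part of goblet and enterocyte markers in the lower Sct, Nts and Tff3 of the Gcg-high side was not tested. Immune markers had 4 of 14 tested and sums of 151 to 223.6 against 29.34 to 365.5. Of the 6 Paneth and 6 stem cell markers 1 each was tested, of the 8 tuft, 12 proliferation and 5 stromal markers none, and of the 10 Gip-cell markers 4. The tuft markers summed to at most 8.787 TMM-normalised CPM in any of the 6 sums. Stromal markers summed to 3.963 to 10.95 in the Gcg-high sums and 6.052 to 166.1 in the Gcg-low sums. Vim made up 161.4 of the Gcg-low sum of SLX-11175.

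The Gcg-low cells were also set against the 65 Pzp-positive cells (15, 22 and 28 in the pools), whose Gcg median was 259.2 CPM (range 11.03 to 32720). Of 7919 genes tested 31 passed (0.391%), 11 higher (0.139%) and 20 lower (0.253%) in the Gcg-low cells. Of the 20 lower genes, 11 did not pass the filter on low counts between the Gcg sides and entered here through the Pzp-positive sums, where they are high. They had to differ, so they are given by their levels as a description. Habp2, a serine protease of plasma, had 0, 0 and 0.2562 TMM-normalised CPM in the Gcg-low sums and 126.5, 217.4 and 286.8 in the Pzp-positive sums, and its gene overlaps Nrap. Onecut3, a transcription factor, gave 0, 0 and 0.2562 against 140.7, 261.9 and 225.5, and Cyp2j5, a cytochrome P450, 0, 3.018 and 0.2989 against 212.8, 404.1 and 491.9. Tph1, the first enzyme of serotonin synthesis, was at 0, 0 and 52.91 against 157.3, 186.7 and 448.7. The others of the 11 were Adamts5, Pgc, Gpx3, Rdh7, Mfsd2a, Col17a1 and the somatostatin receptor Sstr2.

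The other 9 lower genes also passed the filter between the Gcg sides, which the Gcg-high sums alone can meet. Among them Pla2g2d had 0, 1.509 and 0.3416 TMM-normalised CPM in the Gcg-low sums against 44.93, 46.12 and 61.17. Pla2g2d thus had to differ too and is given as a description. Crp, C-reactive protein, had 9.664, 39.23 and 14.99 TMM-normalised CPM in the Gcg-low sums against 182.1, 274.5 and 257.1 (log2 fold change -3.63, SE 0.45, edgeR adjusted p = 0.00547). Rgs2, a regulator of G protein signalling, gave 9.664, 255 and 87.67 against 1330, 1547 and 1287 (-3.99, SE 0.62, 0.0224). Fcgbp, a mucus protein of the goblet list, gave 0, 22.63 and 16.74 against 202.2, 156.5 and 209.4 (-3.70, SE 0.60, 0.0255). Of the 11 listed markers of Pzp-positive cells 7 were called as lower, but most of them are among the genes that entered through the Pzp-positive sums, and the list was chosen with these data known.

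Higher in the Gcg-low cells than in the Pzp-positive cells were both chromogranins. Chgb had 20600, 28860 and 33890 TMM-normalised CPM against 2701, 1147 and 2783 (log2 fold change 3.73, SE 0.44, edgeR adjusted p = 0.00390), and Chga 1561, 1017 and 1700 against 320.4, 90.04 and 241.8 (2.86, SE 0.35, 0.00468). No Gcg-low sum of either gene overlapped a Pzp-positive sum, but the share of all genes without overlap was not counted for this comparison. Naaladl1, a peptidase of the intestine, had 594.4, 297.2 and 205.6 against 5.912, 7.137 and 17.08 (4.98, SE 0.57, 0.00390). Nr4a2, a nuclear receptor of the early response, gave 3.42 (0.0220) and Slc6a19, a transporter of neutral amino acids, 2.03 (0.0220). Many calls of this comparison rested on SLX-9703, without which 12 of the 20 lower and 7 of the 11 higher genes did not pass, Crp (adjusted p = 0.0759), Rgs2 (0.0789), Fcgbp (0.173), Adamts5 (0.0789), Sstr2 (0.622) and Slc6a19 (0.145) among them. Calls lost without SLX-11179 were 1 lower and 4 higher, and without the block 3 lower and 4 higher, Tph1 (0.240), Nr4a2 (0.0756) and Slc6a19 (0.0611) among them. Sct was 127700, 114500 and 111900 against 37900, 18410 and 36540 and did not pass the threshold (2.00, SE 0.42, 0.0888). Nts stood at 1.30 (0.586) and Cck at 0.66 (0.932). The Gcg-low sums enter both comparisons, so the calls of one do not bear independently on the other.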

How the data were processed

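Single intestinal cells of GLU-Venus mice were profiled by Smart-seq2, which marks no strand and has no molecular identifiers. Per the submitters' processing notes the reads were processed with GSNAP (2015-09-29) and HTSeq (0.5.3p3) on mm10. The authors deposited raw counts of reads per gene and cell. Lines that name no gene held 77.6% of the counts, mouse genes 17.1% and spike-ins 5.34%, and 4 columns that match no sample were not used. GENCODE M21 gave symbols for 45143 of 46078 gene identifiers.

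Cells were chosen by plain CPM over mouse genes, and no doublet caller was run. Counts were summed per pool and side and tested in R 4.3.3 with edgeR 4.0.16 (quasi-likelihood, TMM, filterByExpr, pool as block, Benjamini-Hochberg adjustment over all genes tested, threshold 0.05). Sums ranged from 250043 reads (5 cells) to 39487136 reads (15 cells). The labels do not say whether a pool was a single sort. Deviations of the sums from the side means correlated at 0.0894, 0.0483 and 0.299 within pools, against -0.168 to 0.0443 between pools. The study describes 3 mice, 1 of them sequenced more deeply, and sorted some non-fluorescent control cells, but the labels tie no pool to a mouse and no cell to its fluorescence. The tests were checked on simulated counts, and a gene that did not pass may still differ.

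The cells, thresholds, lists and tests were chosen with earlier results of these data known. Named genes were the 10 smallest p in each direction (all that passed included) with the same direction in every pool and an ordinary symbol, peptide hormones, list members that passed and the 3 most abundant members of 8 lists. In the comparison with Pzp-positive cells they were the 5 smallest p in each direction and list members that passed, and Fcgbp and Rgs2 are named for that. Trpa1, Slc18a1, Agr2, Syt11, Pdia4, Pdia6, Mboat4, Atf3, Muc2, Sis, Apoa1, Fabp2, Apob and Anpep were chosen after their values were seen, as was Chga in the comparison of the Gcg sides. Alternatives were DESeq2, other size factors, no filter, no block, each pool left out, other depth, mitochondrial, Gcg, Gpr119 and Pzp limits, thinning to 20000 reads, and the Pzp-positive sums in the fit.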

Additional observations from a re-analysis of the deposited data

Results flagged for a closer look

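In 33 groups of 4 to 10 cells (1 gene or quality value on 1 side of 1 pool), 8 held a cell that stood apart from the rest by Dixon's test, which chance alone gives in about 1 of 20 groups of normally distributed values. Levels of single cells are skewed, so the rate here is not known. All values are plain CPM. Among Gcg-low cells of SLX-11175, 1 cell had Nts at 194000 with the next at 8550, 1 had Pyy at 40900 with the next at 2670, and 1 had Chgb at 59100 with the next at 16200. Among Gcg-low cells of SLX-11179, the highest Ghrl was 16100 with the next at 2380, and the highest Pyy 13800 with the next at 165. The 8 also include Gpr119 in these cells, at 629 with the next at 220. Gpr119 chose the cells, so this value is a description and nothing is drawn from its test. Among Gcg-high cells of SLX-11175, the highest Nts was 412 with the next at 139, and the lowest mitochondrial percentage was 0.413 with the next at 1.81. The tested groups were both sides of SLX-11175 and the Gcg-low side of SLX-11179. The Gcg-high side of SLX-11179 and both sides of SLX-9703 hold more than 10 cells and were not tested.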

How the results depend on the processing

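The Sct and Nts calls had the same direction under all 19 alternatives, from -3.61 to -2.27 for Sct (16 passed) and from -8.73 to -4.04 for Nts (17 passed). Without the pool block no gene was called (0 higher, 0 lower), with Nts at -6.73 and Sct at -2.87, and with the Pzp-positive sums in the fit 2 genes were higher and 1 lower, with Nts at -6.66 and Sct at -2.93, and neither passed. The cause was not tested. Counts called as higher and lower were 19 and 18 with DESeq2, 11 and 13 without a filter, 8 and 5 at a Gcg threshold of 1000 CPM, 1 higher at 30000 CPM, and 6 lower with Gcg from 1000 to 30000 CPM left out. Leaving out each pool gave 1 to 23 higher and 1 to 23 lower, most of them without SLX-11175 (46 in all, of 12670 genes tested), and Sct from -3.49 to -2.40, not passing without SLX-9703.

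Signs turned in genes that did not pass in the main comparison. Of these, Pyy passed under 1 alternative (without SLX-11175) and Chgb under 2. Pyy was 0.0153 without a filter and 0.0446 at a Gcg threshold of 30000 CPM, and -1.13 to 1.16 over pools left out. At the threshold of 1000 CPM, Ffar3 was 0.0492, Chgb 0.41, Scg2 0.11, Cpe 0.24, Abcc8 1.05, Id2 0.27, Id1 0.39 and Crp 1.20. At 30000 CPM Ffar3 was 0.0368, and with the middle range left out Ffar3 was 0.067, Cpe 0.12, Abcc8 0.865, Id2 0.028, Id1 0.0203 and Crp 1.01. Without the block Ffar2 was -0.13 and Nr4a2 0.12, with 50000 reads as minimum Abcc8 was 0.0138 and Id2 0.18, and at 30 CPM of Gpr119 Ffar3 was 0.14 and Id1 0.0689. Ffar2 was -0.0627 in thinned cells, Nr4a2 0.235 with the Pzp-positive sums, and Abcc8 0.0483 with at least 2 Gpr119 reads, a choice made after seeing the data. Over pools left out, the ranges were -0.25 to 1.05 for Ffar2, -0.20 to 0.13 for Ffar3, -0.62 to 0.21 for Abcc8, -1.38 to 0.17 for Sstr5, -0.72 to 0.39 for Id2, -0.90 to 0.20 for Id1, -0.35 to -0.035 for Mc4r, -0.71 to 0.78 for Crp and -0.93 to 0.56 for Nr4a2.

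Against Pzp-positive cells, counts higher and lower were 71 and 86 with DESeq2, 46 and 75 without a filter, and 24 and 78 at a Gcg threshold of 1000 CPM. With 50000 reads as minimum 36 were lower, and at 30 CPM of Gpr119 31 were lower. Leaving out each pool gave 7 to 67 higher and 9 to 79 lower (146 in all without SLX-11175, 51 without SLX-11179 and 16 without SLX-9703, 12 of them shared with the 31). Without the block 34 genes were called, 24 of them shared with the 31. Shallow pools limit genes at a few reads: the smallest Gcg-low sum held 250043 reads. Of 1040 values for 56 genes under alternatives in the comparison of the Gcg sides, 920 kept direction and side of the threshold, 76 newly passed, 5 no longer passed and 39 turned sign.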

Other observations

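Fap differed between the sides by 1.53 to 1.86 log2 units in the 3 pools, Gsto1 by 1.63 to 1.88, and both had an adjusted p of 0.0912 by edgeR. In single cells Fap had a median of 557.6 CPM in Gcg-high, 120.4 in Gcg-low and 51.84 in Pzp-positive cells, with reads in 36 of 36, 22 of 24 and 58 of 65 cells. Fap is the annotated neighbour of Gcg on chromosome 2, with 17292 bases and 0 other gene models between them.

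Pla2g2d, a secreted phospholipase, had reads in 21 of 36 Gcg-high, 6 of 24 Gcg-low and 43 of 65 Pzp-positive cells. The Gcg-low cells were thus the group with the smallest share of cells with a read, and the highest of them had 6.031 CPM. Tff3 had medians of 455.9 CPM in Gcg-high, 1868 in Gcg-low and 3962 in Pzp-positive cells, and Agr2, an endoplasmic reticulum protein of secretory cells, 76.67, 1708 and 4343. Naaladl1, chosen here for its call against Pzp-positive cells, had medians of 36.51, 191.4 and 0 CPM. These values are descriptions over cells and were not tested.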
